A study of Homo sapiens with 2 samples.

Results

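Cadherins are calcium-dependent adhesion receptors that join neighbouring cells. Apart from a few pseudogenes, the genes described here encode cadherins, their desmosomal relatives and the protocadherins, or the catenins and plaque proteins that tie them to the cytoskeleton. All genes were taken by symbol from the array's annotation, as probe sets that name a single gene. The symbols were CDH with a number, PCDH with a number or letter, DSC1 to DSC3, DSG1 to DSG4, the catenins CTNNA1, CTNNA2, CTNNB1, CTNND1 and CTNND2, JUP, PKP1 to PKP4 and DSP. This gave 85 genes on 159 probe sets, out of 19775 genes on 41091 probe sets that name a single gene. They comprised 21 CDH cadherins, 13 desmosome genes, 4 catenins and 47 protocadherins. The pseudogenes PCDHB17P, PCDHB18P and PCDHGB8P match the symbol rule and are counted among the protocadherins throughout.

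Total RNA of 2 Huh7 cultures was hybridised to 1 Affymetrix array each. Huh7 is a long-established line from a human liver carcinoma. One culture was stably transduced by lentivirus with a short hairpin RNA (shRNA) against CD24, a surface glycoprotein, and the other with a non-target control hairpin. Both cultures had therefore been through lentiviral transduction and were grown in the same serum-containing medium. The sources used here do not say which hairpin sequences were used or whether the transduced cells were cloned or pooled.

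In epithelia, classical cadherins of neighbouring cells bind each other, and their cytoplasmic tails bind beta-catenin and p120-catenin, with alpha-catenin linking the complex to actin. Desmosomes are built alike from desmocollins and desmogleins, which hold keratin filaments through plakoglobin, plakophilins and desmoplakin. Hepatocytes carry both E-cadherin and N-cadherin at their junctions, and beta-catenin also acts in the nucleus as the effector of Wnt signalling. Protocadherins lack the catenin-binding tail of the classical cadherins and are best known from neurons.

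Values are log2 differences, CD24 shRNA minus control, averaged over the probe sets of a gene. The deposited values were already centred within each probe set, so a gene's value in the control array is the negative of its value in the CD24 shRNA array, and no level is available. Whether the cells carry the defining proteins of hepatocytes, or more N-cadherin than E-cadherin, cannot be read from these values. The error given is the SD over the probe sets of a gene. It covers disagreement between probe sets and says nothing of how cultures vary. There is no replicate, so no difference has a test. The pooled SD between probe sets of a gene was 0.27 over 10523 genes. In RNA from whole cultures, fewer cells that express a gene and less RNA per cell cannot be told apart. CD24 itself was lower in the array labelled CD24 shRNA on all 6 of its probe sets, at -1.37 ± 0.38 (SD, 6 probe sets).

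Many probe sets of these genes carried little information, which is given before the results because it touches most of them. The values are single-precision numbers. For some probe sets the last digits place the dimmer array below 4 on the scale before centring, a scale whose unit is not stated. This placing is an inference, which assumes that the values were centred directly in single precision. It was made for 53 of the 159 probe sets, or 33.3%, against 25.4% of all probe sets. A further 6 were exactly tied between the arrays. A second sign is a difference whose size, with either sign, recurs within 1.5e-06 in at least 10 other probe sets of the array. Such repeats were found for 83 of the 159 probe sets. They were found for 130 of 179 probe sets of olfactory, taste, keratin-associated and defensin genes, which liver cells are not known to use, and for 16 of 133 probe sets of ribosomal protein genes, EEF1A1, GAPDH, ALB, APOA1 and TTR. Of the same probe sets, 100 of 179 and 8 of 133 were placed below 4. A probe set with none of these 3 signs is called distinct below. Its difference can still recur in fewer than 10 others, as 0.31 does in a distinct probe set each of CDH22 and PCDH12. Ties and repeats are read from the difference itself, so distinct probe sets are partly chosen by their difference, and their directions are a description only. The distinct ones were 64 of 159, or 40.3%, against 50.7% over the array, and 42 of the 85 genes had at least 1.

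**Figure D1:**
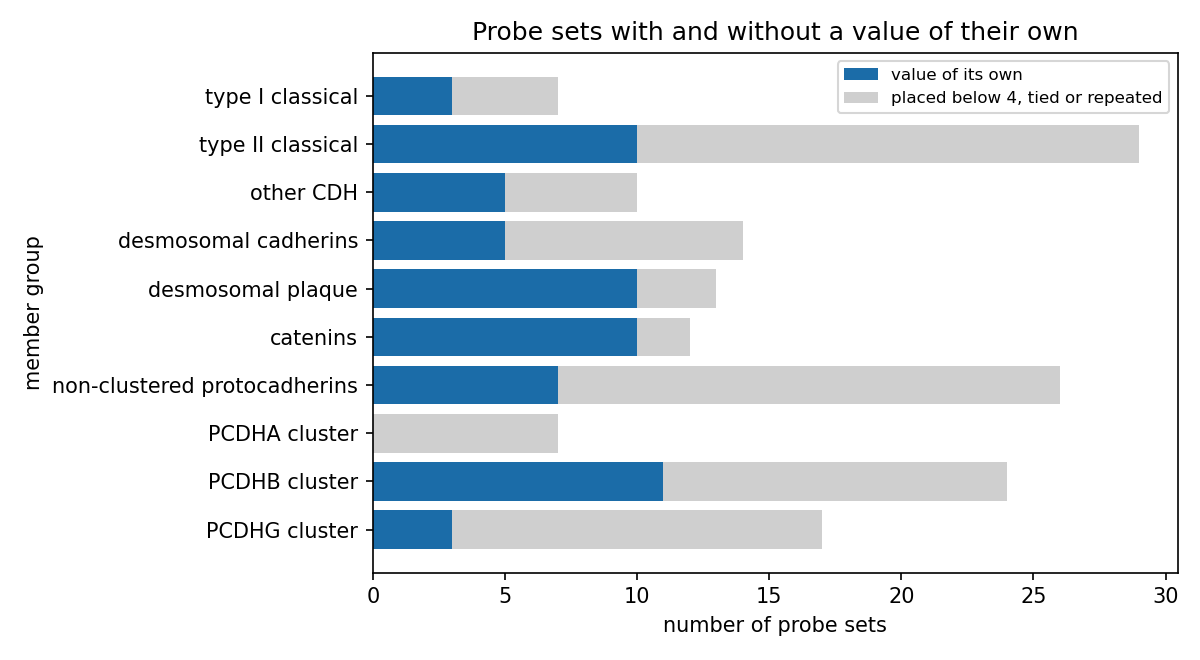
Number of probe sets (horizontal axis) in each group of genes, split into distinct ones (blue, "value of its own") and those placed below 4, tied or repeated (grey). The plaque genes (10 of 13) and catenins (10 of 12) were mostly distinct, whereas the PCDHA cluster had 0 of 7 and the PCDHG cluster 3 of 17.

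Across the 85 genes, N-cadherin was the single gene at least 2-fold higher in the CD24 shRNA array, and 0 genes were at least 2-fold lower. Of all genes on the array, 0.632% passed 2-fold on the higher side, 0.485% on the lower side and 1.12% on either. At 1.5-fold, 6 of the 85 were higher (CDH2, PCDH9, CDH6, CDH17, PCDHB14 and CDH9) and 2 were lower (CDH1 and PCDHGA4). Of all genes, 2.63% passed 1.5-fold on the higher side, 2.38% on the lower side and 5.01% on either. 52 genes lay above 0, 30 below and 3 at 0, with a median of 0.05 against 0.00 over all genes. The share above 0 was 61.2%, against 49.4% of all genes. When the hybridisation control probe sets were set equal, which moved every gene and so the median of all genes up by 0.08, it was 71.8% against 65.6%. That shift put the genes tied between the arrays and CDH7, CDH11, CDH23, DSG2, PCDHB11 and PCDHGB7 above 0, so counts by sign below hold for the deposited centring. 66 of the 85 differences (77.6%) were no larger in size than the pooled SD between probe sets, close to the 76.0% of all genes.

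**Figure D2:**
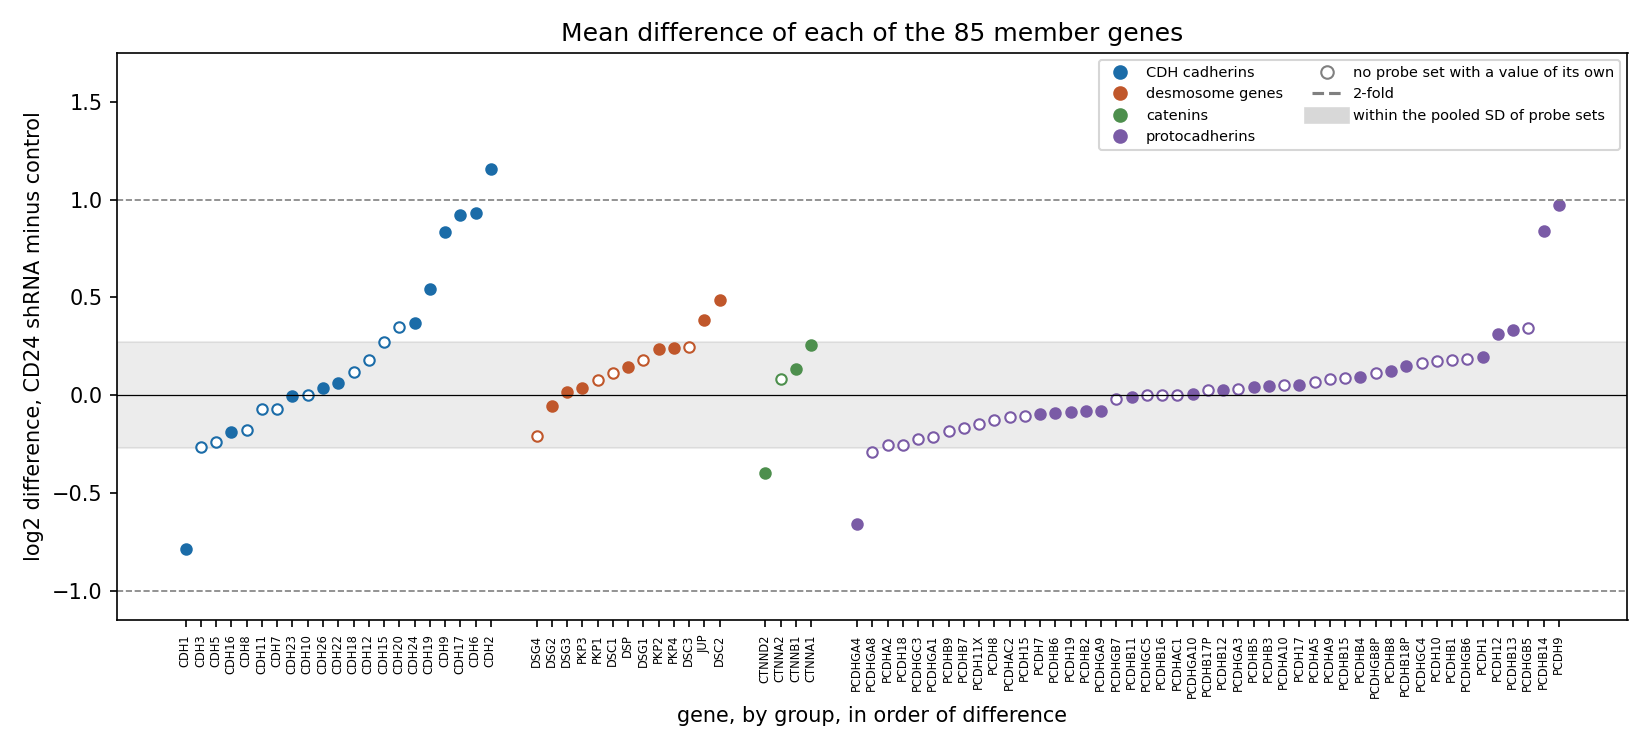
Mean log2 difference (vertical axis, CD24 shRNA minus control) of each of the 85 genes, in order within each group. Open circles are genes with no distinct probe set, dashed lines mark 2-fold and the grey band the pooled SD of 0.27. The CDH cadherins run from -0.78 for CDH1 to 1.16 for CDH2, while 40 of the 47 protocadherins lie within the band.

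The starts of 4 genes are shown, because they are the sole gene past 2-fold (CDH2), the protocadherin with the largest difference (PCDH9) and the clustered protocadherins farthest from 0 in each direction (PCDHB14 and PCDHGA4). Each runs from 250 bases before to 50 after the annotated start, 5′ to 3′ on the gene's strand, from RefSeq on GRCh38.p14. Capitals mark the letters CGCT on either strand (AGCG on the other), the core of an element shared by promoters of clustered protocadherins; the letters can overlap in AGCGCT. The CDH2 window is at chr18:28177081-28177380 on the minus strand, the more upstream of the 2 windows listed for it. PCDH9 is at chr13:67230287-67230586 on the minus strand, PCDHB14 at chr5:141223093-141223392 and PCDHGA4 at chr5:141354771-141355070, both on the plus strand.
CDH2: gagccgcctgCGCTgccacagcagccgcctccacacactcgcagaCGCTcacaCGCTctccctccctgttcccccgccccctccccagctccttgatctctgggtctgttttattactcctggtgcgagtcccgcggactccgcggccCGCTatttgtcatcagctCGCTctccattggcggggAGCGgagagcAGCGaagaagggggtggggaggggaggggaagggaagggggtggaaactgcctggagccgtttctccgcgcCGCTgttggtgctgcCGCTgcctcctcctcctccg
PCDH9: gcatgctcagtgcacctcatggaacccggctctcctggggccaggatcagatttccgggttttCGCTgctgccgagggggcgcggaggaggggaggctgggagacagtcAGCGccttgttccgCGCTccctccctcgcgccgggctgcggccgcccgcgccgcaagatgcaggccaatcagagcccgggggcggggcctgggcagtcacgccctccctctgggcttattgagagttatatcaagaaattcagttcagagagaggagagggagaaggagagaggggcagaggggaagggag
PCDHB14: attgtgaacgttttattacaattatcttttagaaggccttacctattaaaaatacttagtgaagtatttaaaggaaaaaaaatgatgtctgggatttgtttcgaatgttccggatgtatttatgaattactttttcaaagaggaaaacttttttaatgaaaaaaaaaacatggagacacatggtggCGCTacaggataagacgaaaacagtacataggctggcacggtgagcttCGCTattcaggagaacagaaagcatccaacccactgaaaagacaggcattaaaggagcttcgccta
PCDHGA4: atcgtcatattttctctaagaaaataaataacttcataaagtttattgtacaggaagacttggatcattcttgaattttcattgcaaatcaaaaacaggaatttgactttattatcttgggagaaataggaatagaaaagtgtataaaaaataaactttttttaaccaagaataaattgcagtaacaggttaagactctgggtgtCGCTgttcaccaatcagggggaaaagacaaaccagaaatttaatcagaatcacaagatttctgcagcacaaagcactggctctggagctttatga
In the windows shown, CDH2 and PCDH9 are GC-rich (67.0% and 65.7% G or C). The clustered genes are AT-rich (35.7% G or C for PCDHB14 and 32.3% for PCDHGA4), against a median of 58.7% over all windows. The CDH2 window not shown has 40.7% G or C and 0 CGCT matches, so for CDH2 this holds for the upstream window only. CGCT was present in 32 of 33 windows of clustered protocadherins, in 46 of 57 windows of the other genes described here and in 70.0% of all 35116 windows. PCDHB14 has 2 such matches and PCDHGA4 has 1, although their differences have opposite signs. The E-box CAGGTG (read on both strands), the letters that zinc finger repressors such as SNAI1 and ZEB1 can bind, occurred in 11 of 90 windows of these genes against 20.6% of all windows. The TCF motif ATCAAAG, also read on both strands, occurred in 3 of 90 against 2.62%. Windows were found for 65 of the 85 genes; CDH1 and CDH6 are not among them.

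Among the 4 measured type I classical cadherins were the highest gene of the whole set, CDH2, and the lowest, CDH1. CDH2 encodes N-cadherin, which many mesenchymal and neural cells use. Its centred value was -0.58 with the control hairpin and 0.58 with the CD24 hairpin, a difference of 1.16 ± 0.30 (SD, 2 probe sets), or 2.23-fold higher. The probe sets gave 0.95 and 1.36 and both were distinct. The one at 1.36 can match more than 1 transcript by its name, and without it CDH2 lay at 0.95, below 2-fold. CDH2 ranked 84 from the top among the 19775 genes.

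CDH1 encodes E-cadherin, the main cadherin of epithelia. Its centred value was 0.39 with the control hairpin and -0.39 with the CD24 hairpin. The difference was -0.78 ± 0.32 (SD, 2 probe sets), or 1.72-fold lower. Both probe sets lay on the lower side, at -0.56 and -1.01, and the one nearer 0 was placed below 4 in its dimmer array. Without it CDH1 lay at -1.01, past 2-fold, so that the 2-fold call for E-cadherin turned on this probe set. E-cadherin and N-cadherin thus had opposite signs on each of their probe sets, and the ranges of their probe sets did not overlap.

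The other type I genes moved little. CDH3, the P-cadherin of basal epithelial layers, lay at -0.26 on 1 probe set, and CDH15, the muscle M-cadherin, at 0.27 ± 0.02 (SD, 2 probe sets). Neither had a distinct probe set.

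Of 13 type II cadherins, 8 lay above 0, 4 below and 1 at 0, with a median of 0.12, where 49.4% of all genes lay above 0. Those with the largest differences were higher in the CD24 shRNA array. CDH6, or K-cadherin, is known from the kidney and its carcinomas, and had centred values of -0.47 (control) and 0.47 (CD24 shRNA). Its difference was 0.93 ± 0.42 (SD, 6 probe sets), or 1.91-fold higher. The 6 probe sets lay at 0.20, 0.68, 1.03, 1.12, 1.22 and 1.34, so all were on the higher side and 4 were past 2-fold. Of these 4, the one at 1.12 was placed below 4. The highest CDH6 probe set was 1 of 6 probe sets here whose mean level could be placed at 4 or above. With the median over probe sets CDH6 lay at 1.07, past 2-fold.

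CDH9, a cadherin of neurons and kidney, was 1.79-fold higher (0.84, 1 probe set, distinct). CDH19, known from Schwann cells and their precursors, was 1.45-fold higher at 0.54 ± 0.44 (SD, 3 probe sets). Its probe sets disagreed in size. The one at 1.04 was placed at a mean level of 4 or above, and those at 0.38 and 0.20 were placed below 4. CDH24 lay at 0.37 ± 0.14 (SD, 2 probe sets) and CDH20 at 0.35 on a repeated value. CDH22 lay at 0.06 ± 0.36 (SD, 2 probe sets), with probe sets on both sides of 0, at -0.19 and 0.31.

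The remaining type II genes gave no distinct value. CDH5, the VE-cadherin of endothelium, lay at -0.24 and CDH11, the OB-cadherin of mesenchyme and osteoblasts, at -0.07 ± 0.19 (SD, 4 probe sets, 3 of them placed below 4). CDH8 lay at -0.18, CDH7 at -0.07, CDH12 at 0.18 and CDH18 at 0.12. CDH10 was tied between the arrays.

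Outside the classical types, CDH17 had the one large difference. CDH17 encodes liver-intestine cadherin, which lacks the catenin-binding tail and is known from intestine and from part of liver carcinomas. It was 1.90-fold higher (0.92, 1 probe set, distinct), with centred values of -0.46 and 0.46. CDH16, the kidney-specific cadherin, lay at -0.19, CDH26 at 0.03 ± 0.09 (SD, 4 probe sets) and CDH23, a cadherin of the inner ear tip link, at -0.00 ± 0.18 (SD, 4 probe sets). These 3 lay within the pooled SD.

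**Figure D3:**
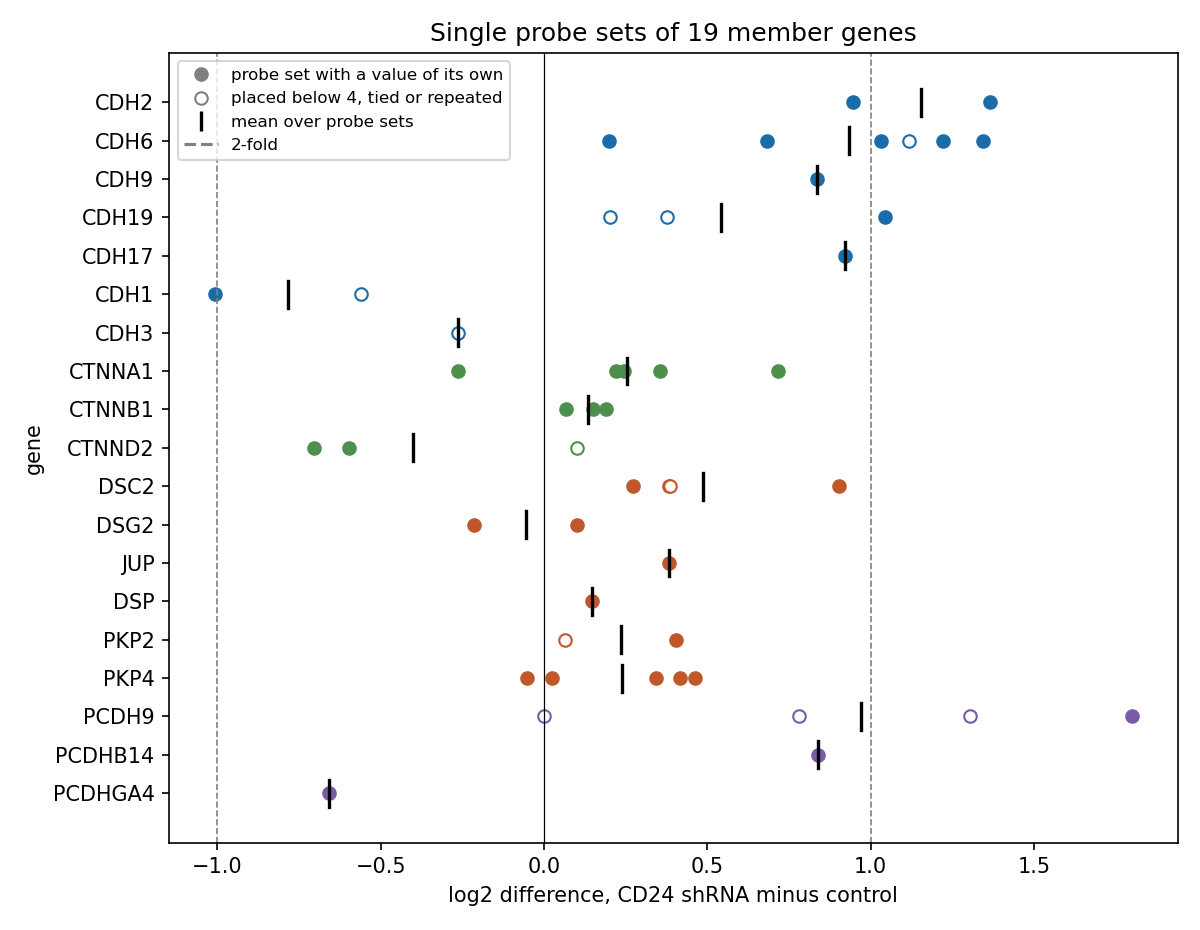
Log2 difference (horizontal axis, CD24 shRNA minus control) of every probe set of 19 genes. Filled points are distinct probe sets, open points are placed below 4, tied or repeated, black ticks are means and dashed lines mark 2-fold. All probe sets of CDH2 and CDH6 lie above 0 and both of CDH1 below, while CTNNA1, CTNND2, DSG2 and PKP4 have points on both sides.

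Catenins differed little. Their median was 0.11 over 4 genes, and -0.09 without probe sets whose names allow more than 1 transcript. CTNNB1, beta-catenin, lay at 0.14 ± 0.06 (SD, 3 probe sets), with probe sets at 0.07, 0.15 and 0.19, all above 0 and all distinct. CTNNA1, alpha-E-catenin, which binds beta-catenin and actin, lay at 0.26 ± 0.35 (SD, 5 probe sets). Of its probe sets 4 lay between 0.22 and 0.72 and the other at -0.26. That last one is also the sole CTNNA1 probe set left without those whose names allow more than 1 transcript, so the direction of CTNNA1 turned under that setting. CTNNA2, the neural alpha-catenin, lay at 0.08 on 1 probe set.

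CTNND2, the neural delta-catenin, had the lowest catenin value, at -0.40 ± 0.44 (SD, 3 probe sets), or 1.32-fold lower. Its distinct probe sets gave -0.70 and -0.60, and the remaining one, a repeated value, 0.10. Without the repeated one the mean was -0.65, past 1.5-fold. CTNND1, the p120-catenin that stabilises classical cadherins at the membrane, was not among the 85 genes, because each of its 4 probe sets also names the read-through transcript TMX2-CTNND1. These 4 lay at 0.07, 0.17, 0.24 and 0.42, with a mean of 0.22 ± 0.15 (SD, 4 probe sets).

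Desmosome genes lay mostly a little above 0. Of 13 genes, 11 were above 0 and 2 below, with a median of 0.15 against 0.00 over all genes. Over all genes, 49.4% lay above 0. 0 of 13 passed 1.5-fold in either direction, and 11 lay within the pooled SD, against 5.01% and 76.0% of all genes. The whole range of the desmosome genes was -0.21 to 0.49. With the hybridisation controls set equal both medians moved up alike, to 0.22 and 0.08.

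The plaque genes were above 0 in 6 of 6, against 49.4% of all genes, and 5 of the 6 lay within the pooled SD. JUP, plakoglobin, which joins desmosomes and can stand in for beta-catenin at adherens junctions, lay at 0.38 on 1 probe set. PKP4 lay at 0.24 ± 0.24 (SD, 5 probe sets), with probe sets at -0.05, 0.02, 0.34, 0.42 and 0.46, all distinct. PKP2, the plakophilin of simple epithelia and heart, lay at 0.24 ± 0.24 (SD, 2 probe sets). The distinct one gave 0.41 and the one placed below 4 gave 0.06. DSP, desmoplakin, which binds the keratin filaments, lay at 0.15 on 1 distinct probe set. PKP1 and PKP3, plakophilins of stratified and other epithelia, lay at 0.08 ± 0.20 and 0.04 ± 0.10 (SD, 2 probe sets each). Both genes had probe sets on either side of 0, and PKP1 had no distinct one.

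Of the desmosomal cadherins, those of simple epithelia are DSC2 and DSG2. DSC2, desmocollin 2, had the highest value of the desmosome genes at 0.49 ± 0.28 (SD, 4 probe sets). Its probe sets lay at 0.27, 0.38, 0.39 and 0.90, all above 0, and the distinct ones were the lowest and the highest. DSG2, desmoglein 2, lay at -0.06 ± 0.22 (SD, 2 probe sets), with distinct probe sets at -0.21 and 0.10. Every DSC2 probe set lay above both DSG2 probe sets, and the DSG2 probe sets lay on both sides of 0. The nearest probe sets of the 2 genes, at 0.27 and 0.10, were closer together than the pooled SD. With the hybridisation controls set equal DSG2 turned to 0.02.

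The desmosomal cadherins of skin and other stratified epithelia were near 0. DSC3 lay at 0.24 ± 0.13 (SD, 3 probe sets), DSC1 at 0.12, DSG1 at 0.18, DSG3 at 0.02 ± 0.03 (SD, 2 probe sets, 1 tied) and DSG4 at -0.21. DSC1, DSC3, DSG1 and DSG4 had no distinct probe set.

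Protocadherins as a group stayed close to the array. Of 47 genes, 26 lay above 0, 19 below and 2 at 0, with a median of 0.02, where 49.4% of all genes lay above 0. At 1.5-fold, 2 passed on the higher side (PCDH9 and PCDHB14) and PCDHGA4 on the lower. Only 21 of their 74 probe sets, or 28.4%, were distinct.

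PCDH9 led the non-clustered protocadherins. It encodes a delta-1 type protocadherin of the nervous system. Its centred value was -0.49 with the control hairpin and 0.49 with the CD24 hairpin, a difference of 0.97 ± 0.77 (SD, 4 probe sets), or 1.96-fold higher. The probe sets lay at 0.00, 0.78, 1.30 and 1.80. The first was tied, those at 0.78 and 1.30 were placed below 4, and the distinct one was the highest. PCDH9 therefore ranged from 0.65 without probe sets whose names allow several transcripts to 1.80 on its distinct probe set alone, on the same side of 0.

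The other 10 non-clustered genes lay between -0.26 and 0.31. PCDH12, known as the endothelial VE-cadherin-2, lay at 0.31 on 1 probe set, and PCDH1, of airway epithelium, at 0.19 ± 0.15 (SD, 2 probe sets). PCDH18 lay at -0.26 ± 0.14 (SD, 2 probe sets), both repeated. PCDH10 lay at 0.18 ± 0.05 (SD, 4 probe sets, all repeated and 3 placed below 4), so its small SD is not an agreement of distinct probe sets. PCDH7 lay at -0.10 ± 0.11 (SD, 5 probe sets) and PCDH17 at 0.05 ± 0.13 (SD, 3 probe sets). PCDH8, PCDH11X, PCDH15 and PCDH19 lay between -0.15 and -0.09.

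Clustered protocadherins are made from tandem first exons on chromosome 5, each with its own promoter, and give neurons surface identities. In the PCDHB cluster, 11 of 17 genes lay above 0 and 5 below, with a median of 0.04. PCDHB14 was 1.79-fold higher (0.84, 1 probe set, distinct), with centred values of -0.42 and 0.42. PCDHB13 beside it lay at 0.33 ± 0.43 (SD, 2 probe sets), with 0.03 on the distinct one and 0.64 on the one placed below 4. The PCDHB genes other than PCDHB13 and PCDHB14 lay between -0.18 and 0.18. In the PCDHG cluster, 6 of 13 lay above 0 and 6 below. PCDHGA4 was 1.58-fold lower (-0.66, 1 probe set, distinct), with centred values of 0.33 and -0.33, and the others lay between -0.29 and 0.34. The 6 PCDHA genes lay between -0.26 and 0.08, and 0 of their 7 probe sets were distinct.

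Some of these genes are neighbours, and their values are given in chromosome order (RefSeq, GRCh38.p14). On chromosome 16, 6 of 7 cadherins lay below 0: CDH8, CDH11, CDH5, CDH16, CDH3 and CDH1, with CDH15 above (CDH11 turned above 0 with the hybridisation controls set equal). Of these, CDH16 and CDH1 had a distinct probe set. Apart from CDH1, those below 0 were no larger in size than the pooled SD. Over all genes, 47.5% lay below 0 and 49.4% above. On chromosome 18, where CDH2 precedes the desmocollin and desmoglein genes, 8 of 11 lay above 0, a count to which that setting adds CDH7 and DSG2. CDH2 at 1.16 was followed by DSC3 at 0.24, DSC2 at 0.49 and DSC1 at 0.12, and then by the desmogleins between -0.21 and 0.18. On chromosome 5, the adjacent members CDH9 (0.84) and CDH6 (0.93) were both higher, next to CDH10, which was tied, CDH12 (0.18) and CDH18 (0.12). Neighbours were not tested as groups.

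**Figure D4:**
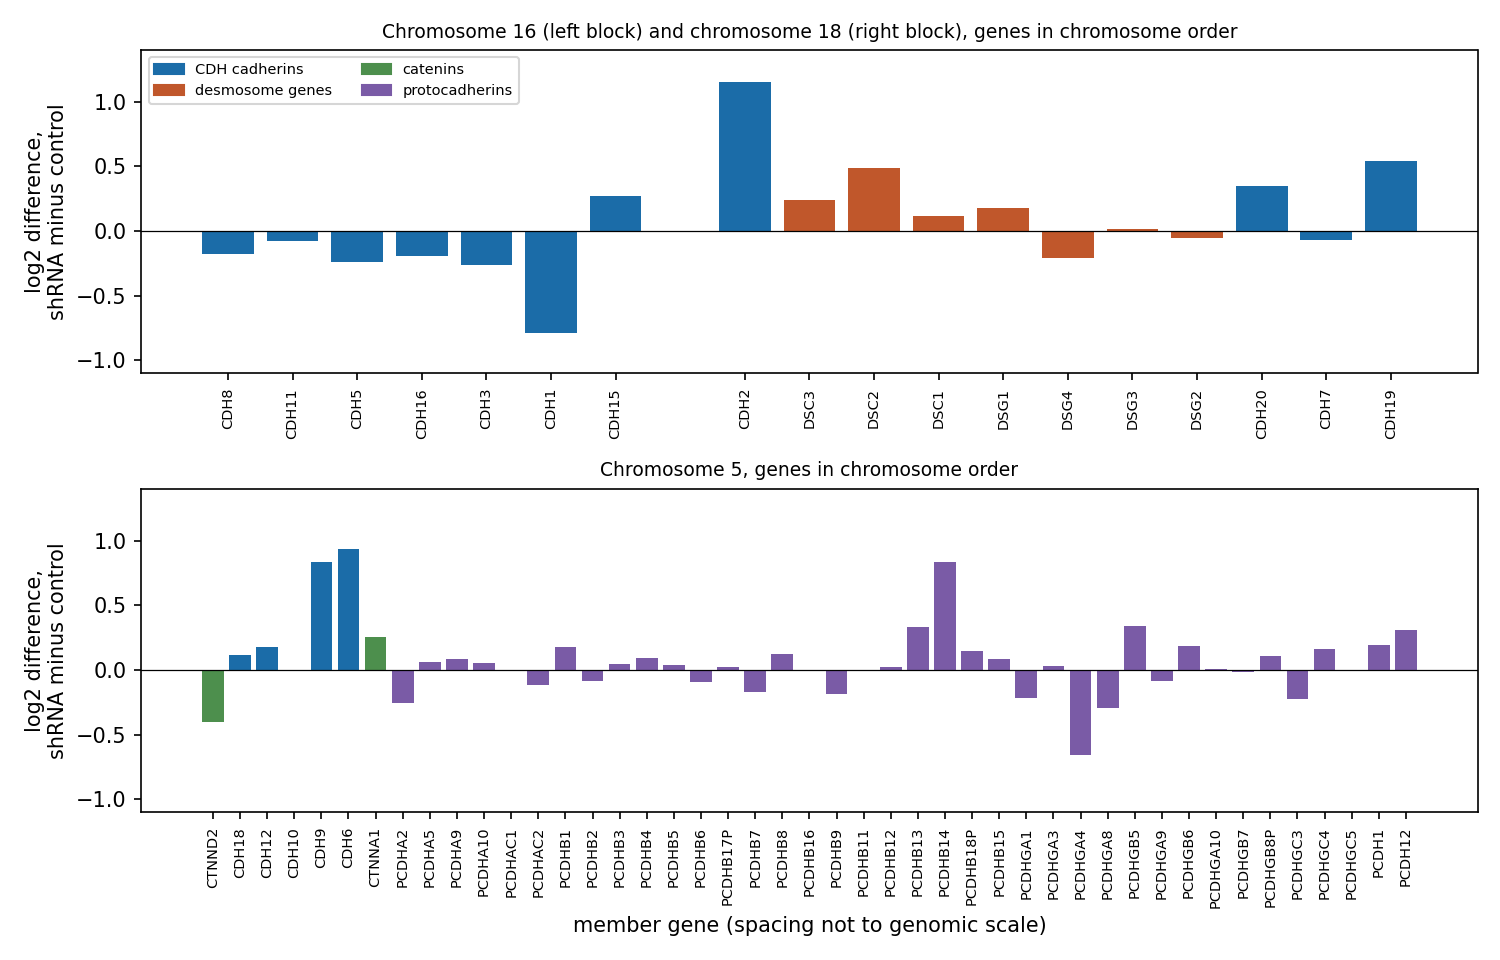
Log2 difference (vertical axis, CD24 shRNA minus control) of the genes on chromosomes 16, 18 and 5, in chromosome order with equal spacing. Bars are means over probe sets, coloured by group. 6 of 7 bars on chromosome 16 lie below 0 and 8 of 11 on chromosome 18 above, where 47.5% of all genes lie below 0 and 49.4% above. CDH11 on chromosome 16 and CDH7 and DSG2 on chromosome 18 change side with the hybridisation controls set equal. CDH9 and CDH6 stand side by side at 0.84 and 0.93.

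The sign was compared between probe sets of the same gene. Of 41 genes with several probe sets, 15 had all above 0 and 6 all below, or 51.2%, against 39.9% of all such genes.

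Partners of the cadherins were read from lists of textbook members. Of 23 adherens junction partners, 15 lay above 0 and 4 were at least 1.5-fold higher, with a median of 0.12. Over all genes, 49.4% lay above 0 and 2.63% were at least 1.5-fold higher. PTPRM, a receptor phosphatase that binds cadherin complexes, lay at 1.00 ± 0.03 (SD, 2 probe sets). ACTN4, an actin crosslinker, lay at 0.77 on 1 probe set and NECTIN3, an immunoglobulin-type adhesion receptor, at 0.66 ± 0.56 (SD, 2 probe sets). Vinculin (VCL), which binds alpha-catenin under tension, lay at 0.24 ± 0.19 (SD, 2 probe sets).

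Partners of desmosomes, keratins and plakins among them, were read next. Of 9 such genes, 7 lay above 0, 2 below and 4 were at least 1.5-fold higher, with a median of 0.30. The shares over all genes were 49.4% above 0 and 2.63% at least 1.5-fold higher. The desmosome partners past 1.5-fold were the keratins KRT8 (0.93), KRT18 (0.85) and KRT19 (0.63 ± 0.34, SD, 2 probe sets, 1 placed below 4) and the plakin PPL (0.88). PERP, a desmosomal membrane protein, lay at -0.13 ± 0.37 (SD, 5 probe sets), and the plakins EVPL and PLEC at -0.12 and 0.08.

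Of 17 measured genes of the wider cadherin superfamily, 9 lay above 0 and 2 were at least 1.5-fold higher, with a median of 0.01. For this list and those that follow in this paragraph, the share of all genes above 0 was 49.4%. The share of all genes past 1.5-fold was 2.63% on the higher side and 2.38% on the lower side. The giant cadherins FAT4 and FAT3 lay at 0.88 on 1 probe set and 0.70 ± 0.98 (SD, 3 probe sets, 1 placed below 4). Repressors of CDH1 showed small differences: 8 of 11 lay above 0 and 0 passed 1.5-fold, with SNAI2 the highest at 0.40 on a probe set placed below 4, ZEB1 at 0.22 ± 0.22 (SD, 4 probe sets) and SNAI1 at 0.15. Of 10 genes of cadherin shedding and uptake, 6 lay above 0 and 0 passed 1.5-fold, and ADAM10, the protease that cleaves N-cadherin and E-cadherin, lay at 0.47 ± 0.22 (SD, 3 probe sets). Of 15 genes that degrade beta-catenin or act with it on DNA, 9 lay above 0 with a median of 0.02, and 1 passed 1.5-fold, TCF7L1, a mostly repressive TCF, at -0.91 on 1 probe set.

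Markers of other cell types were read beside these results. Of 9 endothelial markers, 2 lay above 0, 6 below and ESAM was tied, with a range of -0.20 to 0.16 (PECAM1, VWF and ESAM also lay above 0 with the hybridisation controls set equal). Of 10 stellate cell and fibroblast markers, 8 lay above 0, with a median of 0.21, and 3 were at least 2-fold higher. Over all genes, 49.4% lay above 0 and 0.632% were at least 2-fold higher. The 3 markers past 2-fold had probe sets that disagreed widely. TAGLN lay at 2.67 ± 2.27 (SD, 3 probe sets from 0.05 to 4.02, 0 placed below 4). COL3A1 lay at 2.35 ± 1.77 (SD, 5 probe sets from 0.11 to 3.78, 4 placed below 4). LUM lay at 1.12 ± 1.41 (SD, 2 probe sets at 0.13 and 2.12, both placed below 4). Of the other markers, ACTA2 lay at 0.40 ± 0.52 (SD, 3 probe sets, 2 placed below 4) and COL1A2 at 0.28. POSTN lay at 0.15 (3 of 4 probe sets placed below 4) and DCN at 0.04 (4 of 7 probe sets placed below 4). PDGFRB lay at 0.02, COL1A1 at -0.13 (1 of 5 probe sets placed below 4) and THY1 at -0.18. Their summed levels cannot be given from centred values, and their part in the CDH2 and CDH6 differences was not tested.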

How the data were processed

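The authors deposited log2 values made with RMA (robust multi-array average), per the submitters' processing notes. Its software and any later step are not stated there. The 2 deposited values of a probe set sum to 0 within 1e-06. Of 54675 probe sets, 41091 name 1 gene in GEO's annotation of the platform, 1801 several and 11721 none here, beside 62 controls that were left out. The Entrez ID of 41037 was found in RefSeq's gene table (GRCh38.p14), which changed 0 symbols.

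CD24 shRNA minus control was averaged over each gene's probe sets with Python 3.11.15 and pandas 2.3.3. Thresholds were 2-fold and 1.5-fold. With 1 array per group no test was run, and the precision is limited by how few arrays there are. The calculation was tested on simulated data. Genes were named by a rule: those past 1.5-fold, the highest and lowest of each group, CDH1, CDH2, CTNNA1, CTNNB1, CTNND1, JUP, DSP, DSG2, DSC2 and PKP2 whatever their value, and at most 3 genes past 1.5-fold in each other list. All other genes named, such as CDH19, PKP4, VCL and PERP, were chosen after their values were seen. Alternatives changed the summary over probe sets, the probe sets kept, the centring and the threshold; leaving out tied and repeated values was added after seeing the data. The genes and the 8 partner and marker lists were chosen with earlier results of these data known.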

Additional observations from a re-analysis of the deposited data

How the results depend on the processing

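The number of genes at least 2-fold higher was 1 as reported, 3 with the median over probe sets, 4 with the largest probe set per gene, 0 without probe sets named _s_at or _x_at (no value then for CDH1), 2 without probe sets placed below 4, 4 with hybridisation controls set equal and 3 on distinct probe sets alone. It was 6 at 1.5-fold and 0 at 3-fold. The number at least 2-fold lower was 0 as reported, 2 at 1.5-fold, and 1 with the largest probe set per gene, without probe sets placed below 4 and on distinct probe sets alone. The median of the CDH cadherins moved from 0.06 to 0.47 on distinct probe sets alone, a setting added after the data were seen, which kept 11 of 21 genes and, since ties and repeats are read from the difference, is no independent support. The other medians moved by less than the pooled SD of 0.27 under the alternatives run. No gene past 1.5-fold changed sign where it had a value; CTNNA1 (-0.26 without _s_at and _x_at probe sets) and DSG2 (0.10 there and 0.02 with hybridisation controls set equal) did. No paired analysis was possible because each group has 1 array. Values of 1 array a group leave the spread between cultures unmeasured, and the protocadherins had the lowest share of distinct probe sets.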

Other observations

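Probe sets that name several protocadherins were left out of the values above and are given here. The 3 probe sets that name all 15 genes of the PCDHA cluster, whose transcripts share their last exons, lay at 0.27, 0.29 and 0.47, a mean of 0.34 ± 0.11 (SD, 3 probe sets). All were above 0, and 1 was placed below 4. The 7 probe sets of single PCDHA genes were all repeated values, and lay between -0.26 (PCDHA2) and 0.12 (PCDHAC1). The 3 that name several PCDHG genes lay at -0.45, -0.05 and 0.00, and the 3 that name a pair of PCDHA genes between -0.12 and 0.06. The 1 that names PCDHB9 and a neighbouring gene of its cluster lay at -0.57, against -0.18 for PCDHB9 on its own probe set. PCDH20, a non-clustered protocadherin, shares both of its probe sets with LINC02339, and these lay at -0.09 and 0.58.

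Differences of identical size recurred in unrelated genes. CDH12 and DSG1 had the same difference of 0.18, a size found with either sign in 185 other probe sets of the array each. PCDHB15 and 1 CDH11 probe set had 0.09, a size found with either sign in 215 others each. In total 17252 of 41091 probe sets carried a difference whose size was found in at least 10 others.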
